A study of Mus musculus with 22 samples.

Results

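The comparison described here sets lateral ventricle choroid plexus (LV ChP) of mice injected with Cre-Tat against LV ChP of mice injected with vehicle. It uses 4 of the 14 pools of the series, 2 labelled Cre-Tat and 2 labelled vehicle, chosen by the library number in the file name. All animals were Otx2 lox/lox mice of strain S129, 3 months old, with males and females mixed. Cre-Tat is a recombinant Cre recombinase fused to the cell-penetrating Tat peptide, and it or vehicle was injected bilaterally into the lateral ventricles. ChP was dissected 15 days later after perfusion with saline. Each pool labelled Cre-Tat held 5 mice and each pool labelled vehicle held 4 mice, and the 2 sequencing runs made of every pool, with reads of 50 bases, were added up. The comparison addresses which transcripts of adult LV ChP differ after Cre-Tat is given to mice with a floxed Otx2 gene. Both groups carry the same floxed alleles, and vehicle rather than an inactive protein was the control, so an effect of the protein itself and an effect of recombination cannot be told apart. Per the study's methods, part of every ChP went to qPCR, as a check that Otx2 averaged lower with Cre-Tat. Pools of the other ventricle sampled (4V) of the same model are used only beside these results.

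The ChP is a sheet of secretory epithelium over a core of fenestrated vessels, fibroblasts and macrophages. Its epithelial cells make the cerebrospinal fluid (CSF), form the blood-CSF barrier through tight junctions, and release carriers and growth factors into the CSF. Resident and recruited immune cells sit in the stroma and on the surface, and the tissue responds to interferon and to other signs of inflammation. OTX2 is a homeodomain transcription factor that is needed for ChP development and stays expressed in the adult epithelium.

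Only 1 of the 8 LV files is attached to a sample whose label carries the same library number as the file name, and files were assigned to pools by that number. Runs then agreed within about sampling noise (chi-square over degrees of freedom 1.01 to 1.03), whereas files paired as attached gave 22.8 or more. The 4 pools held 45254165 to 50088408 counts over all transcripts. The 50 most abundant genes took 48.6% and 53.3% of the counts in pools A and B labelled Cre-Tat and 54.5% and 54.7% in those labelled vehicle, and transcripts of the mitochondrial genome took 31.2% and 32.7% against 29.7% and 30.2%. The labels name no batch. Values below are normalized counts, that is, reads on 1 transcript per gene scaled by TMM factors, and errors are SD over 2 pools. A gene is called where its edgeR quasi-likelihood p, adjusted over the 15002 genes tested, was below 0.05, and only called genes are said to rise or fall. The groups did not overlap, with both pools labelled Cre-Tat above both others, for 22.1% of the genes tested, and with both below for 20.2%. Nothing states whether the 2 pools of a group came from separate surgical sessions, so p-values measure only the spread between these pools. For a single gene, permuting 2 pools and 2 pools in an exact two-sided test cannot give a p below 0.333.

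Otx2 (ENSMUSG00000021848, chr14:48657677-48673819 of GRCm38, minus strand), the targeted gene, had 27139 and 22494 normalized counts in pools A and B labelled Cre-Tat and 8444 and 10294 in pools A and B labelled vehicle. The pools labelled Cre-Tat were the higher ones, without overlap, although their label stands for recombination of the gene (log2 fold change 1.41, SE 0.18, edgeR adjusted p = 0.00051). The 8 transcripts of Otx2 in the files were all higher there, from a ratio of 1.86 for Otx2-206 to 2.95 for Otx2-203. The files count whole transcripts, which take in sequence outside the floxed exon, so these counts are no check of its deletion. Groups are named by their labels throughout, and every direction below is that of the pools labelled Cre-Tat relative to those labelled vehicle.

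Of the 15002 genes, 486 were called (3.24%), of which 331 rose (2.21%) and 155 fell (1.03%). The counts of each gene list below are to be read beside these shares. The rises were the larger changes, with a median log2 fold change of 1.32 and 227 genes changed more than 2-fold, against a median of -0.85 and 47 genes for the falls. Falls took a larger share of the genes with high counts, which grow with both level and transcript length, although 11 of the 155 had a mean under 100, 74 one of 100 to 1000 and 57 one of 1000 to 10000. Among genes with a mean of 10000 or more normalized counts, 13 fell (10.1%) and 2 rose (1.55%), the latter being Otx2 and Ptgds, which encodes lipocalin-type prostaglandin D synthase. Of the 13, Vat1l (18981 and 22714 normalized counts in pools labelled vehicle, 13015 and 13192 in those labelled Cre-Tat) and Gpm6a, a membrane glycoprotein also found in neurons (39331 and 42265 in the former, 26232 and 22636 in the latter), are described with no list, and the other 11 were Enpp2, Igf2, Htr2c, Slc4a2, Slc4a5, Slc2a12, Stk39, Kcne2, Kcnj13, Atp2b3 and Col8a1. Among the 4574 genes with a mean under 100, 0.24% fell and 97 rose (2.12%). The genes that fell thus made up 5.42% of the counts of tested genes in the pools labelled vehicle and 3.73% in those labelled Cre-Tat, while those that rose went from 0.648% to 1.62%. Scaled by total counts in place of TMM, the log2 fold changes of all genes shifted by 0.17 and the calls were 396 higher and 48 lower, so that 89.2% in place of 68.1% were rises. Of the genes with a mean of 10000 or more, 3 then still fell and 3 rose. Vat1l and Gpm6a lost the call under total counts (edgeR adjusted p = 0.088 to 0.12), and Vat1l with the pool letter as a replicate block (edgeR adjusted p = 0.057). Vat1l and Gpm6a lost it without pool A labelled vehicle (edgeR adjusted p = 0.11), and Ptgds, Vat1l and Gpm6a without pool B labelled vehicle (edgeR adjusted p = 0.060 to 0.47).

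**Figure D1:**
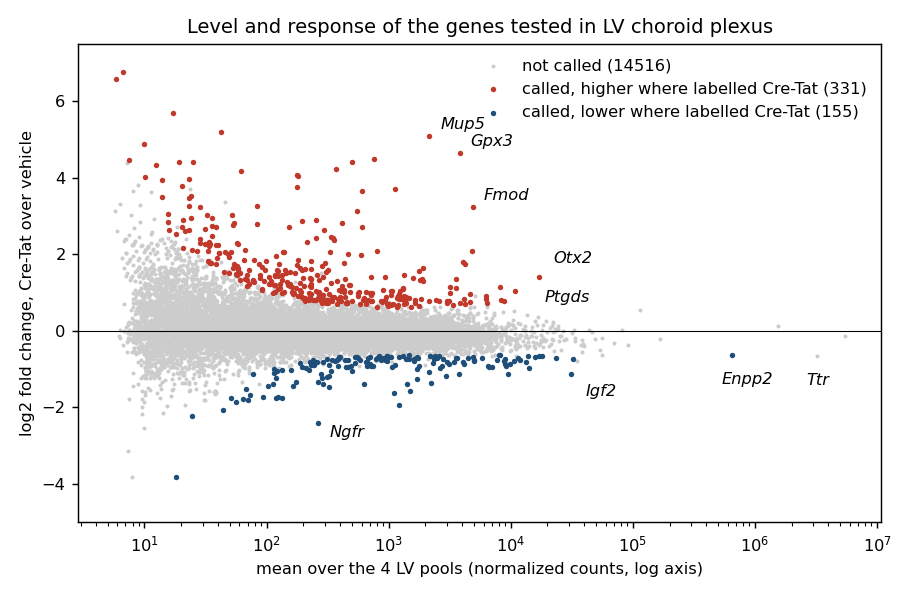
Mean normalized count over the 4 LV pools (x axis, log scale) and log2 fold change of the pools labelled Cre-Tat over those labelled vehicle (y axis) for the 15002 genes tested. Red points are the 331 genes called higher and blue points the 155 called lower. Blue points extend to high counts, with Igf2 and Enpp2 among them, while Ttr, with still higher counts, was not called. The largest rises lie at lower counts, with Mup5, Gpx3, Igkc and Fmod the largest above 1000.

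Among genes with a mean of 100 normalized counts or more, the 12 largest rises included secreted proteins with few counts in the pools labelled vehicle. Mup5, a major urinary protein of the lipocalin family, had 3463 and 4898 normalized counts in the pools labelled Cre-Tat (A and B) and 24.1 and 221 in those labelled vehicle (log2 fold change 5.10, SE 0.56, edgeR adjusted p = 0.00015). The groups stood far apart, and the vehicle pools also differed widely from each other. Reads of Mup5 can be shared with its near-identical paralogs. Gpx3 (chr11:54902453-54910377), the secreted glutathione peroxidase, went from 143 and 446 in pools labelled vehicle to 5857 and 8819 in those labelled Cre-Tat (log2 fold change 4.64, SE 0.39, edgeR adjusted p = 1.6e-05). Ndnf, a secreted neuron-derived factor, stood at 1299.8 and 921 against 51.3 and 126 (log2 fold change 3.65, edgeR adjusted p = 1.6e-05). Pi15, a secreted peptidase inhibitor, reached 437 and 243 against 10.5 and 30.5. Cacnb3, a beta subunit of voltage-gated calcium channels, was even between the pools of the Cre-Tat label, at 343 and 315, and low in the others, at 14.6 and 33.8 (log2 fold change 3.77, SE 0.31, edgeR adjusted p = 1.4e-05). Fam216b, whose function is little known, had 1098 and 882 against 83.7 and 142. Exons of Pi15 and Fam216b overlap an annotated gene on the other strand. Fmod is described with the matrix genes, and the remaining 5 of these 12 rises were immunoglobulin genes and Jchain, described with the lymphocyte markers because 1 pool carried most of their counts.

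The 12 largest falls among genes of the same minimum level held receptors, membrane transporters and cell surface proteins. Ngfr (chr11:95568818-95587735), the p75 neurotrophin receptor, had 73.2 and 95.7 normalized counts in pools A and B labelled Cre-Tat and 465 and 428 in those labelled vehicle (log2 fold change -2.41, SE 0.21, edgeR adjusted p = 1.7e-05). Nrn1, which encodes the membrane-anchored neurite growth protein neuritin, stood at 407 and 600.2 against 1739 and 2124 (log2 fold change -1.94, SE 0.20, edgeR adjusted p = 0.00010). For both genes the groups were far apart and pools lay closer within a group than between groups. Slc26a7, an anion exchanger, had 613 and 465 against 1632 and 1724 (log2 fold change -1.64, SE 0.18, edgeR adjusted p = 0.00013). Steap1, of a family of metalloreductases, had 584 and 909 against 2342 and 2128, and its chromosomal neighbour Steap2, named here after its value was seen, had 6332 and 5544 against 12430 and 13516. The other falls were Dazl (-1.77), Itga10 (-1.76), Npy1r (-1.72), Defb11 (-1.48), Entpd3 (-1.45), Olfr574 (-1.45), Sphkap (-1.39) and Olfr570 (-1.39 on the log2 scale). Npy1r is a neuropeptide Y receptor, Itga10 a collagen-binding integrin subunit and Entpd3 an ectonucleotidase. Olfr574 and Olfr570 are neighbours on chromosome 7 with similar sequences, and Itga10 overlaps Gm42957 on the same strand, so their reads may not be separable. Sphkap lost the call under total counts (edgeR adjusted p = 0.082), with 8 pools in the fit (edgeR adjusted p = 0.061), with transcripts summed (edgeR adjusted p = 0.055) and without pool A labelled Cre-Tat (edgeR adjusted p = 0.12).

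**Figure D2:**
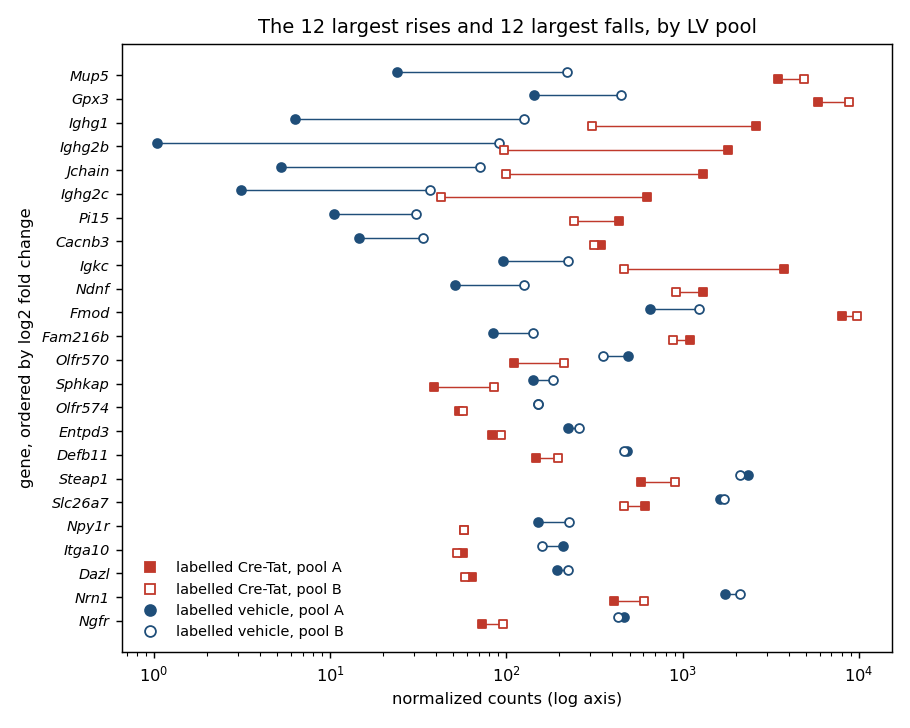
Normalized counts (x axis, log scale) of the 12 largest rises and 12 largest falls among genes with a mean of at least 100 (y axis, ordered by log2 fold change). Squares are pools labelled Cre-Tat, circles pools labelled vehicle, filled for pool A and open for pool B, and a line joins the pools of a group. The groups are separate for each gene, but for Ighg2b and Ighg2c pool B labelled Cre-Tat lies next to pool B labelled vehicle.

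Genes that mark the ChP epithelium mostly had negative fold changes in the pools labelled Cre-Tat. Of 30 tested, 8 fell and 1 (Otx2 itself) rose, and 25 of the 30 had a negative log2 fold change, with a median of -0.43 against 0.00 over all genes tested. Of all genes tested, 1.03% fell, 2.21% rose and 7394 of 15002 had a negative value. The groups did not overlap, with the Cre-Tat label lower, for 22 of the 30, against 20.2% of all genes tested. Ttr, which encodes transthyretin, the carrier of thyroxine and of retinol-binding protein, had 2078868 and 2953507 normalized counts in pools A and B labelled Cre-Tat and 3891119.9 and 4064578 in those labelled vehicle. The groups did not overlap, but the difference did not pass the test (log2 fold change -0.66, SE 0.19, edgeR adjusted p = 0.077). With all pools kept, Ttr passed by DESeq2 (DESeq2 adjusted p = 0.0073) and with the letter as a block (edgeR adjusted p = 0.016). It also passed with counts summed over transcripts (edgeR adjusted p = 0.039) and without a filter (edgeR adjusted p = 0.00054). It did not pass with a mean count above 10 as the filter (edgeR adjusted p = 0.072) or with DESeq2 size factors (edgeR adjusted p = 0.070). Nor did it under total counts (edgeR adjusted p = 0.091) or with 8 pools in the fit (edgeR adjusted p = 0.101). Its log2 fold change was -0.42 and -0.93 without pool A or B labelled Cre-Tat, and -0.70 and -0.63 without pool A or B labelled vehicle. Enpp2, which encodes autotaxin, the enzyme that makes lysophosphatidic acid, fell from 786565 and 791874 in pools labelled vehicle to 498976 and 524109 in those labelled Cre-Tat (log2 fold change -0.63, SE 0.16, edgeR adjusted p = 0.0496). Htr2c, the serotonin 2C receptor, had 10103 and 8968 against 17767 and 19457 (log2 fold change -0.96, SE 0.16, edgeR adjusted p = 0.0047). Slc29a4, a monoamine transporter, had 996 and 1519.7 against 2956 and 3503 (log2 fold change -1.36, edgeR adjusted p = 0.0017). Sostdc1, a secreted inhibitor of BMP and Wnt signalling, had 4111 and 4870.3 against 8904 and 8438 (log2 fold change -0.95, edgeR adjusted p = 0.0055). The other falls of the list were Kcnj13, Kcne2, Aqp1 and Slc4a5. Genes without a call included Folr1, the folate receptor of this epithelium (log2 fold change -0.36, edgeR adjusted p = 0.41), and Kl, which encodes klotho (-0.63). With all pools kept, Kl passed by DESeq2 (DESeq2 adjusted p = 0.0010) and with its size factors, 8 pools, summed transcripts or no filter (edgeR adjusted p = 0.0063 to 0.047). It did not pass with the other filter, the block or total counts (edgeR adjusted p = 0.051 to 0.13). Under total counts 3 genes of the list fell, with a median of -0.25 against 0.17 over all genes. With 1 pool left out, 7 and 15 genes of this list fell without pool A or B labelled Cre-Tat, and 4 and 3 without pool A or B labelled vehicle. Enpp2, Kcnj13, Kcne2, Aqp1 and Slc4a5 lost the call under total counts (edgeR adjusted p = 0.068 to 0.15). With the letter as a block, Enpp2, Kcne2 and Aqp1 lost it (edgeR adjusted p = 0.054 to 0.071). Kcne2, Aqp1 and Slc4a5 lost it without pool A labelled Cre-Tat (edgeR adjusted p = 0.054 to 0.079), Enpp2, Kcnj13, Kcne2, Aqp1 and Slc4a5 without pool A labelled vehicle (edgeR adjusted p = 0.12 to 0.54), and Enpp2, Kcnj13, Kcne2, Aqp1 and Slc4a5 without pool B labelled vehicle (edgeR adjusted p = 0.090 to 0.22).

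The machinery that moves ions and water into the CSF showed falls in its channels and exchangers. Of 33 genes of fluid secretion and ion transport tested, 9 fell and 1 rose, with a median of -0.26. Of all genes tested, 1.03% fell and 2.21% rose. The share that fell was larger at high counts, at 1.93% for means of 1000 to 10000 and 10.1% for means of 10000 or more. Aqp1, the water channel of the apical membrane, had 5885 and 6808 normalized counts in pools A and B labelled Cre-Tat and 10167 and 9611 in those labelled vehicle (log2 fold change -0.64, edgeR adjusted p = 0.046). Slc4a2, the basolateral chloride-bicarbonate exchanger, had 12583 and 15274 against 21823 and 22339, and Slc4a5, a sodium-bicarbonate cotransporter, had 7769 and 9639.9 against 13957 and 14752. Kcnj13, an inwardly rectifying potassium channel, had 8487 and 9376 against 14717 and 15311, and Kcne2, a potassium channel subunit, had 9876 and 11373 against 18434 and 15349. Stk39, the kinase SPAK that regulates the chloride cotransporters, had 12960 and 11328 against 19821 and 19501. The plasma membrane calcium pumps Atp2b3 (-0.71) and Atp2b4 (-0.74) fell together on the log2 scale. Exons of Slc4a2 and Kcnj13 overlap an annotated gene on the other strand, and no source used here states whether counting used strand. The falls of this list near -0.7 on the log2 scale depended on the scaling, since under total counts 1 gene of the list fell and the median was -0.09. With 1 pool left out, 6 and 10 genes of this list fell without pool A or B labelled Cre-Tat, and 1 and 1 without pool A or B labelled vehicle. Aqp1, Slc4a2, Slc4a5, Kcnj13, Kcne2, Stk39, Atp2b3 and Atp2b4 lost the call under total counts (edgeR adjusted p = 0.068 to 0.15). With the letter as a block, Aqp1, Slc4a2 and Kcne2 lost it (edgeR adjusted p = 0.053 to 0.071). Aqp1, Slc4a2, Slc4a5 and Kcne2 lost it without pool A labelled Cre-Tat (edgeR adjusted p = 0.054 to 0.079), Aqp1, Slc4a2, Slc4a5, Kcnj13, Kcne2, Stk39, Atp2b3 and Atp2b4 without pool A labelled vehicle (edgeR adjusted p = 0.077 to 0.54), and Aqp1, Slc4a2, Slc4a5, Kcnj13, Kcne2, Stk39, Atp2b3 and Atp2b4 without pool B labelled vehicle (edgeR adjusted p = 0.090 to 0.27).

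Carriers of organic solutes fell more often than they rose. Of 44 tested, 7 fell and 2 rose, with a median of -0.25, while 1.03% of all genes tested fell and 2.21% rose. Slc2a12, a glucose transporter, had 9735 and 9784 normalized counts in the pools labelled Cre-Tat and 16427 and 17880 in those labelled vehicle (log2 fold change -0.81, SE 0.16, edgeR adjusted p = 0.012). Slc31a1, the copper importer CTR1, had 5930.3 and 5626 against 9849 and 9761, and Slc5a6, a biotin and pantothenate transporter, had 440 and 529.7 against 845 and 846. Both rises were glutamate transporters. Slc1a2 had 760.1 and 1104 against 323 and 607 (log2 fold change 1.00, edgeR adjusted p = 0.046), and Slc1a6 had 80.2 and 86.6 against 2.09 and 2.18, where 2 reads in each vehicle pool leave the size of its rise undefined. Slc1a3, another one, was at a log2 fold change of 0.54 (edgeR adjusted p = 0.14). Slco1c1, which carries thyroxine and organic anions, was at a log2 fold change of -0.31 (edgeR adjusted p = 0.41). Under total counts 2 genes of the list fell and 2 rose. With 1 pool left out, 7 and 12 genes of this list fell without pool A or B labelled Cre-Tat, and 2 and 2 without pool A or B labelled vehicle. Slc31a1 and Slc5a6 lost the call under total counts (edgeR adjusted p = 0.070 to 0.075), Slc1a2 with a mean count above 10 as the filter (edgeR adjusted p = 0.055), and Slc1a2 with DESeq2 size factors (edgeR adjusted p = 0.064). Slc1a2 lost it with 8 pools in the fit (edgeR adjusted p = 0.060). Slc1a2 lost it without pool B labelled Cre-Tat (edgeR adjusted p = 0.14), Slc2a12, Slc31a1, Slc5a6 and Slc1a2 without pool A labelled vehicle (edgeR adjusted p = 0.053 to 0.38), and Slc2a12, Slc31a1 and Slc5a6 without pool B labelled vehicle (edgeR adjusted p = 0.059 to 0.13).

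Igf2, the growth factor that the ChP releases into the CSF, fell. It had 16586 and 22258 normalized counts in pools A and B labelled Cre-Tat and 38382 and 46631 in those labelled vehicle, a mean of 19422 ± 4010.3 against 42507 ± 5833 (SD, n = 2 pools each). The higher Cre-Tat pool lay well under the lower vehicle pool (log2 fold change -1.13, SE 0.19, edgeR adjusted p = 0.0041), and the call held under each of the 12 alternative settings run. Ins2, the insulin gene next to Igf2 on chromosome 7, had 156 and 284 against 432 and 468 (log2 fold change -1.04, edgeR adjusted p = 0.027). Igf2os, transcribed from the other strand of Igf2, had 75.8 and 82.6 against 158 and 122 and was not called (log2 fold change -0.82, edgeR adjusted p = 0.11). Its exons overlap those of Igf2. Igf1 (log2 fold change 0.65, edgeR adjusted p = 0.078) and Igfbp3 (log2 fold change 0.55, edgeR adjusted p = 0.14) were not called either. Of 17 genes of the IGF axis tested, 2 fell and 15 were not called, while under total counts 1 rose and 1 fell. Igf2 also overlaps Gm49394 on its own strand. Ins2 lost the call under total counts (edgeR adjusted p = 0.084) and without pool A labelled Cre-Tat (edgeR adjusted p = 0.080).

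Other secreted signals moved in both directions, with 4 rises and 4 falls among 31 growth factors and modulators tested and a median of -0.05. Besides Ndnf, the rises were Fgf1, Edn3 and Wnt2b. Fgf1, a fibroblast growth factor without a signal peptide, had 998 and 895 normalized counts where labelled Cre-Tat and 184 and 293 where labelled vehicle (log2 fold change 1.99, SE 0.21, edgeR adjusted p = 0.00012). Edn3, which encodes the vasoactive peptide endothelin 3, had 1595 and 1998 against 838 and 858 (log2 fold change 1.08, SE 0.17, edgeR adjusted p = 0.0026). Its receptor Ednrb fell, from 2783 and 3188 to 1808 and 1505 (log2 fold change -0.85, edgeR adjusted p = 0.013). Wnt2b, a Wnt ligand, had 77.6 and 56.4 against 10.5 and 9.81. The falls were Tgfb2, Sostdc1, Sfrp1 and Sfrp5, the last pair being secreted Wnt inhibitors. Tgfb2, a ligand of the TGF-beta family, had 4828 and 4791 against 9008 and 9543 (log2 fold change -0.95, SE 0.16, edgeR adjusted p = 0.0042), with each group nearly even. Among 15 neurotrophin and neuritin genes tested, Ngfr and Nrn1 fell and 2 sorting receptors of the VPS10 family rose. These were Sorcs2, at 399 and 508 against 154 and 159 (log2 fold change 1.53, edgeR adjusted p = 0.00051), and Sorl1, at 1584 and 1262 against 671 and 708 (log2 fold change 1.05, edgeR adjusted p = 0.0036). Ntrk2, the BDNF receptor TrkB, was at 21321 and 22031 against 20157 and 20926 (log2 fold change 0.08, edgeR adjusted p = 0.92). Exons of Tgfb2, Nrn1 and Sorl1 overlap a gene on the other strand. Ednrb and Sfrp5 lost the call under total counts (edgeR adjusted p = 0.074 to 0.13), and Sfrp5 with transcripts summed (edgeR adjusted p = 0.070). Sfrp5 lost it without pool A labelled Cre-Tat (edgeR adjusted p = 0.11), Sfrp5 without pool A labelled vehicle (edgeR adjusted p = 0.057), and Ednrb, Sfrp1 and Sfrp5 without pool B labelled vehicle (edgeR adjusted p = 0.064 to 0.31).

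Among 24 receptors for hormones and transmitters tested, with some of their signalling partners, 5 fell and 3 rose. The shares of all genes tested were 1.03% and 2.21%. Htr2c, Ednrb, Crhr2, Ghr and Kalrn fell. Crhr2, a receptor for urocortins, had 244 and 415 normalized counts where labelled Cre-Tat and 669.6 and 692 where labelled vehicle (log2 fold change -1.05, edgeR adjusted p = 0.017), and Ghr, the growth hormone receptor, was at a log2 fold change of -0.64 (edgeR adjusted p = 0.045). Kalrn, a guanine nucleotide exchange factor, had 1681 and 2128 against 3642 and 3554 (log2 fold change -0.92, SE 0.17, edgeR adjusted p = 0.0083). Prlr, the prolactin receptor, had 21693 and 29460 against 36381 and 51882 and just missed the threshold (log2 fold change -0.79, edgeR adjusted p = 0.052). The adenosine A1 receptor Adora1 had 654 and 678 against 179 and 207 (log2 fold change 1.79, SE 0.18, edgeR adjusted p = 6.6e-05), and Adcy8, an adenylyl cyclase stimulated by calcium, had 153 and 150.1 against 7.32 and 24 (log2 fold change 3.27, edgeR adjusted p = 0.00037). Arrb1, a beta-arrestin, rose by a log2 fold change of 0.65 (edgeR adjusted p = 0.047). Of 23 genes of retinoid and thyroid hormone handling tested, 3 fell, among them Stra6 and Crabp1, and 20 were not called. Stra6, the receptor that takes up retinol, had 708 and 878 against 1561 and 1358 (log2 fold change -0.88, edgeR adjusted p = 0.011), and Crabp1, a cytoplasmic retinoic acid carrier, had 26.5 and 43.3 against 97.3 and 102 (log2 fold change -1.52, edgeR adjusted p = 0.020). Under total counts 1 of these genes fell and the receptors gave 2 falls and 4 rises. Ednrb, Crhr2, Ghr and Stra6 lost the call under total counts (edgeR adjusted p = 0.058 to 0.20), Arrb1 with DESeq2 size factors (edgeR adjusted p = 0.057), and Ghr, Arrb1 and Crabp1 with transcripts summed (edgeR adjusted p = 0.062 to 0.074). With the letter as a block, Ghr lost it (edgeR adjusted p = 0.053). Arrb1 and Crabp1 lost it without pool A labelled Cre-Tat (edgeR adjusted p = 0.084 to 0.090), Ghr without pool B labelled Cre-Tat (edgeR adjusted p = 0.071), Ghr, Arrb1 and Stra6 without pool A labelled vehicle (edgeR adjusted p = 0.090 to 0.46), and Ednrb, Ghr and Arrb1 without pool B labelled vehicle (edgeR adjusted p = 0.12 to 0.19).

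Matrix genes showed single large changes rather than a shift of the list. Of 42 matrix proteins, proteoglycans and their receptors tested, 4 rose and 1 (Itga10) fell, with a median of 0.09. The shares of all genes tested were 2.21% and 1.03%. Fmod (chr1:134037254-134048277), the collagen-binding small proteoglycan fibromodulin, had 7978 and 9826 normalized counts where labelled Cre-Tat and 652 and 1245 where labelled vehicle (log2 fold change 3.23, SE 0.26, edgeR adjusted p = 1.4e-05), the largest change of the list. Its neighbour on chromosome 1 and family member Prelp had 7389 and 9125 against 4042 and 4672 (log2 fold change 0.92, edgeR adjusted p = 0.0091). Layn, a hyaluronan receptor, was even within each group at 1318 and 1301 against 307 and 306 (log2 fold change 2.10, SE 0.16, edgeR adjusted p = 1.4e-05). Matn2, a filament-forming matrilin, had 11192 and 11193 against 6343 and 6776 (log2 fold change 0.77, edgeR adjusted p = 0.016). Other small proteoglycans of stromal fibroblasts were near 0, with Dcn at a log2 fold change of -0.13 (edgeR adjusted p = 0.84) and Lum at a log2 fold change of -0.10 (edgeR adjusted p = 0.90). Among 31 collagen genes, Col1a2, a chain of fibrillar type I collagen, rose from 864 and 1007 to 2613 and 3235 (log2 fold change 1.64, SE 0.17, edgeR adjusted p = 0.00012), whereas Col1a1, the other chain of that collagen, was at 158 and 236 against 143 and 208 and was not called (log2 fold change 0.16, edgeR adjusted p = 0.88). Col11a1 rose as well, and Col8a1, Col14a1 and Col17a1 fell. Col8a1, a network-forming collagen of basement membranes, had 7924 and 7854 against 12088 and 14965 (log2 fold change -0.78, edgeR adjusted p = 0.020). Col8a1 and Col14a1 lost the call under total counts (edgeR adjusted p = 0.062 to 0.077). Col11a1 lost it without pool A labelled Cre-Tat (edgeR adjusted p = 0.053), Prelp and Matn2 without pool A labelled vehicle (edgeR adjusted p = 0.14 to 0.26), and Matn2, Col8a1 and Col14a1 without pool B labelled vehicle (edgeR adjusted p = 0.076 to 0.32).

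Tight junction genes of the blood-CSF barrier were mostly not called. Of 35 genes of tight junctions and cell adhesion tested, 4 rose and 2 fell, with a median of -0.06. The shares of all genes tested were 2.21% and 1.03%. Of the claudins, Cldn1 was at a log2 fold change of -0.44 (edgeR adjusted p = 0.20), Cldn2 at a log2 fold change of 0.14 (edgeR adjusted p = 0.82) and Cldn3 at a log2 fold change of -0.54 (edgeR adjusted p = 0.30). Marveld3, a tight junction protein with a tetraspanning domain, had 99.6 and 99.7 normalized counts where labelled Cre-Tat and 287 and 215 where labelled vehicle (log2 fold change -1.33, SE 0.22, edgeR adjusted p = 0.0045). The rises were adhesion proteins better known from neurons. Megf11, of the multiple EGF domain family, had 1179 and 929 against 94.2 and 230.1 (log2 fold change 2.70, SE 0.30, edgeR adjusted p = 0.00015), and Flrt1, a leucine-rich repeat adhesion protein, had 298 and 291 against 82.7 and 114 (log2 fold change 1.58, edgeR adjusted p = 0.0011). Nlgn1, a neuroligin of excitatory synapses, had 51.1 and 59.4 against 11.5 and 12, and Cadm1 was at a log2 fold change of 0.95 (edgeR adjusted p = 0.014). Among 28 genes of membrane and vesicle trafficking, Pcsk2, a prohormone convertase, fell from 2179 and 2420.4 to 1058 and 1381 (log2 fold change -0.92, edgeR adjusted p = 0.010), together with its chaperone Scg5 (log2 fold change -0.68, edgeR adjusted p = 0.039) and with Pitpnm1 (log2 fold change -0.68, edgeR adjusted p = 0.032). Scg5 and Pitpnm1 lost the call under total counts (edgeR adjusted p = 0.12 to 0.14), and Scg5 with transcripts summed (edgeR adjusted p = 0.061). Scg5 and Pitpnm1 lost it without pool A labelled Cre-Tat (edgeR adjusted p = 0.064 to 0.093), Cadm1, Scg5 and Pitpnm1 without pool A labelled vehicle (edgeR adjusted p = 0.12 to 0.29), and Scg5 and Pitpnm1 without pool B labelled vehicle (edgeR adjusted p = 0.12 to 0.30).

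Of 43 antioxidant and glutathione genes tested, 5 rose and 1 fell, with a median of 0.13, while 2.21% of all genes tested rose and 1.03% fell. Besides Gpx3 the rises were the metallothioneins Mt1 and Mt2, which bind zinc and copper, and the peroxisomal oxidases Acox2 and Ddo. Mt1 had 1482 and 2413 normalized counts where labelled Cre-Tat and 612 and 804 where labelled vehicle (log2 fold change 1.46, SE 0.22, edgeR adjusted p = 0.0022). Mt2, its neighbour on chromosome 8, had 405 and 672 against 86.8 and 170.1 (log2 fold change 2.07, SE 0.29, edgeR adjusted p = 0.0011). For both, pool B was the higher of each group. Mt3 was at a log2 fold change of 0.02 (edgeR adjusted p = 0.99). Gpx1 (0.01), Gpx4 (0.13), Prdx5 (0.17), Sod1 (-0.31) and Cat (0.06), the intracellular peroxide and superoxide enzymes, were not called, so Gpx1 and Gpx4 did not pass the test where Gpx3 did. Scd1, which desaturates stearoyl-CoA, fell from 5331 and 5063 to 2746 and 2042 (log2 fold change -1.12, SE 0.18, edgeR adjusted p = 0.0030). The promoter windows of the metallothionein pair are shown because both genes rose and both windows hold the core of the metal response element, searched as TGCACNC on both strands. The letters come from RefSeq for GRCm38.p6, cover 250 bases before to 50 after the start, and run 5′ to 3′ on the gene's strand with matches in capitals. Such a match was found in 12.6% of all 32851 windows. Ddo lost the call without pool A labelled vehicle (edgeR adjusted p = 0.092).
Mt1, chr8:94178839-94179138, plus strand: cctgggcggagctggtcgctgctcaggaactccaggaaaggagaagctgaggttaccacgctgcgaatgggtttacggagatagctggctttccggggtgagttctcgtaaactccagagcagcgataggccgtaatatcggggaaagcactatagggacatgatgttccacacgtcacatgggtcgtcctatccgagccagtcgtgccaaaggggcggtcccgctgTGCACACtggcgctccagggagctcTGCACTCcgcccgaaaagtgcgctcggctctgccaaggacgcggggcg
Mt2, chr8:94172368-94172667, plus strand: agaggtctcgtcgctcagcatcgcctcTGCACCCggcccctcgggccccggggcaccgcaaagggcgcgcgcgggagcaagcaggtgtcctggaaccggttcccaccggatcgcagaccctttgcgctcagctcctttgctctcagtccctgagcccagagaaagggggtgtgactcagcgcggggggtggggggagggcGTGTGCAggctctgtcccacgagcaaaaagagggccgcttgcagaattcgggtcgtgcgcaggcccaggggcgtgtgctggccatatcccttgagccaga

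Genes of antigen presentation through MHC class II rose together. Of 11 tested, 9 rose and 2 were not called, with a median of 1.31 against 0.00 over all genes tested, where 2.21% rose. Cd74, the invariant chain, had 2895 and 2221 normalized counts in pools A and B labelled Cre-Tat and 793 and 1257 in those labelled vehicle (log2 fold change 1.32, SE 0.21, edgeR adjusted p = 0.0036). The class II chains H2-Aa, H2-Ab1 and H2-Eb1 lie next to each other on chromosome 17. H2-Eb1 had 2458 and 2115 against 748 and 1017 (log2 fold change 1.37, SE 0.18, edgeR adjusted p = 0.00078), H2-Ab1 had 3074 and 2414 against 784 and 1429, and H2-Aa had 1918 and 1658 against 717 and 920.2. Ciita, the transactivator of class II genes, had 99.6 and 76.5 against 16.7 and 38.2 (log2 fold change 1.69, edgeR adjusted p = 0.030). In each of these genes both Cre-Tat pools were above both vehicle pools, pool A was the higher one of the Cre-Tat label, and pool B the higher one of the vehicle label. With 1 pool left out, 5 and 8 genes of this list rose without pool A or B labelled Cre-Tat, and 4 and 9 without pool A or B labelled vehicle. MHC class I genes moved less, with 2 rises among 21 tested and a median of 0.40. These were Nlrc5, the transactivator of class I genes, at 84.7 and 109 against 20.9 and 18.5 (log2 fold change 2.28, SE 0.35, edgeR adjusted p = 0.0023), and H2-D1, at 1027 and 904 against 417 and 552 (log2 fold change 1.00, edgeR adjusted p = 0.0074). B2m, the shared light chain, was at a log2 fold change of 0.46 (edgeR adjusted p = 0.18) and H2-K1 at a log2 fold change of 0.68 (edgeR adjusted p = 0.079). H2-D1 and H2-K1 are similar in sequence and may share reads. Ciita lost the call with transcripts summed (edgeR adjusted p = 0.087). Ciita lost it without pool A labelled Cre-Tat (edgeR adjusted p = 0.12), and Ciita and H2-D1 without pool A labelled vehicle (edgeR adjusted p = 0.11 to 0.17).

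Interferon-inducible genes also rose. Of 42 tested, 13 rose and 29 were not called, 40 of the 42 had a positive log2 fold change, and the median was 0.85. Of all genes tested, 2.21% rose and 7608 of 15002 had a positive value. Iigp1, an immunity-related GTPase, had 607 and 534 normalized counts in pools A and B labelled Cre-Tat and 51.3 and 157 in those labelled vehicle (log2 fold change 2.46, SE 0.33, edgeR adjusted p = 0.00085). Ifi27l2a had 451 and 234 against 33.5 and 61.1 (log2 fold change 2.86, SE 0.33, edgeR adjusted p = 0.00026). Ifit1 and Ifit2, which act on viral RNA and translation, had 284 and 180.3 against 60.7 and 98.1 and 351 and 319 against 104 and 158. Other rises included the guanylate-binding proteins Gbp2, Gbp3, Gbp4 and Gbp9, the GTPases Igtp, Irgm1 and Irgm2, and Gm4841. Several of these are near-identical copies in clusters, so reads may be shared. Genes that lead many interferon responses were not called, among them Irf7 (-0.09), Bst2 (0.11) and Oasl2 (0.04 on the log2 scale). Isg15, Oas1a, Oas2 and Mx1 were too low to be tested. With 1 pool left out, 9 and 12 genes of this list rose without pool A or B labelled Cre-Tat, and 7 and 17 without pool A or B labelled vehicle. Gbp4 lost the call under total counts (edgeR adjusted p = 0.065), Gbp9 by DESeq2 (DESeq2 adjusted p = 0.053), and Gbp4 and Irgm1 with a mean count above 10 as the filter (edgeR adjusted p = 0.056 to 0.061). Gbp4, Irgm1 and Irgm2 lost it with DESeq2 size factors (edgeR adjusted p = 0.051 to 0.069), Gbp4 with 8 pools in the fit (edgeR adjusted p = 0.13), and Gbp4, Gbp9, Irgm1 and Irgm2 with transcripts summed (edgeR adjusted p = 0.061 to 0.103). Ifit1, Gbp9, Irgm1 and Gm4841 lost it without pool A labelled Cre-Tat (edgeR adjusted p = 0.060 to 0.11), Gbp4, Igtp and Irgm2 without pool B labelled Cre-Tat (edgeR adjusted p = 0.091 to 0.50), and Gbp3, Gbp9, Igtp, Irgm1 and Irgm2 without pool A labelled vehicle (edgeR adjusted p = 0.057 to 0.57).

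The promoters of 3 of these genes are shown because they hold the core of the interferon-stimulated response element, searched on both strands as GAAA, any 2 bases and GAAA. The letters come from RefSeq for GRCm38.p6, 250 bases before to 50 after the start of the gene, 5′ to 3′ on its own strand, with matches in capitals. Of the tested interferon-inducible genes, 30 have a window in the RefSeq table, and 16 of these hold a match, 6 of the 7 that rose and 10 of the 23 that were not called. Over all 32851 windows the share with a match was 3.44%. It was 5.3% in windows of genes that rose and 6.13% in windows of genes that fell. A match is a description of letters and does not show binding.
Ifit1, chr19:34640639-34640938, plus strand: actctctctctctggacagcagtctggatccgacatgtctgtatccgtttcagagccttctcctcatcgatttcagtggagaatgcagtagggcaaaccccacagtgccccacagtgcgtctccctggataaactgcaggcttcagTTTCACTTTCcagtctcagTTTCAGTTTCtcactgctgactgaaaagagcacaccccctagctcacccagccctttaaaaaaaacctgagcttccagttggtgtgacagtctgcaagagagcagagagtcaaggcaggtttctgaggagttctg
Gbp2, chr3:142620413-142620712, plus strand: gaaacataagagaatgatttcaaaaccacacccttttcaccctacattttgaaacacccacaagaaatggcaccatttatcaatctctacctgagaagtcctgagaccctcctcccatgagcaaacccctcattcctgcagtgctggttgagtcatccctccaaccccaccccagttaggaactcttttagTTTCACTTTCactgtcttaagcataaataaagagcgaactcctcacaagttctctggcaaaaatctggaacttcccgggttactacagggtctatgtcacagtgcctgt
Irgm1, chr11:48871371-48871670, minus strand: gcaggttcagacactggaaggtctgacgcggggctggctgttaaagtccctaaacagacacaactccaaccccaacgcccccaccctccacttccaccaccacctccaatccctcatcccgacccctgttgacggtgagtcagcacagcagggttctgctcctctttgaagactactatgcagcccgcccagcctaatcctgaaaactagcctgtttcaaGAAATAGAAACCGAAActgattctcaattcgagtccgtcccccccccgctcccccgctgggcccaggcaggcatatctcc

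Of 21 complement genes tested, 5 rose and 16 were not called, while 2.21% of all genes tested rose. C3, the central component, had 332 and 200.4 normalized counts where labelled Cre-Tat and 32.4 and 49.1 where labelled vehicle (log2 fold change 2.71, SE 0.30, edgeR adjusted p = 0.00017). The C1q chains C1qa (log2 fold change 1.06, edgeR adjusted p = 0.0041) and C1qb (log2 fold change 0.94, edgeR adjusted p = 0.016), the C3a receptor C3ar1 (log2 fold change 1.32, edgeR adjusted p = 0.025) and Cd55 (log2 fold change 1.15, edgeR adjusted p = 0.0011), a surface protein that dissociates complement convertases, rose with it. Cd55 had 4622 and 4112 against 1893 and 2038. Clu, the chaperone and complement inhibitor clusterin, had 27488 and 41713 against 44446 and 42687 and was not called (log2 fold change -0.33, edgeR adjusted p = 0.51). Among 17 acute phase and antimicrobial genes tested, Mup5, Lyz2, Orm2 and Saa3 rose and Defb11 fell. Lyz2, the lysozyme of myeloid cells, had 802 and 505 against 251 and 323 (log2 fold change 1.19, edgeR adjusted p = 0.0092). Orm2 and Saa3 were low, with 27.3 and 75.5 against 3.14 and 7.63 and 38.8 and 57.4 against 0 and 4.36 normalized counts. Among 21 genes of chemokines and the TNF family, Tnfrsf11b, the decoy receptor osteoprotegerin, went from 9.42 and 3.27 to 114 and 121 (log2 fold change 4.17, SE 0.44, edgeR adjusted p = 0.00010). Ccl9, a chemokine for myeloid cells, fell from 2153 and 1943 to 817 and 751 (log2 fold change -1.39, SE 0.16, edgeR adjusted p = 0.00025), while Ccl6, encoded beside it on chromosome 11, was at 83.8 and 62.4 against 22 and 29.4 (log2 fold change 1.51, edgeR adjusted p = 0.038). Cxcl13, which attracts B cells, had 228 and 145 against 31.4 and 95.9, and Icam1, an adhesion receptor for leukocytes, 735 and 699 against 404 and 474. Vcam1, at 10561 and 10048 against 12777 and 14554, was not called (log2 fold change -0.41, edgeR adjusted p = 0.24). Cxcl13 lost the call under total counts (edgeR adjusted p = 0.059), C3ar1 and Ccl6 by DESeq2 (DESeq2 adjusted p = 0.068 to 0.097), and Cxcl13 with DESeq2 size factors (edgeR adjusted p = 0.059). C3ar1, Cxcl13 and Icam1 lost it with transcripts summed (edgeR adjusted p = 0.074 to 0.095). C3ar1, Ccl6 and Cxcl13 lost it without pool A labelled Cre-Tat (edgeR adjusted p = 0.068 to 0.18), Orm2 without pool B labelled Cre-Tat (edgeR adjusted p = 0.18), C1qb, C3ar1, Ccl6, Cxcl13 and Icam1 without pool A labelled vehicle (edgeR adjusted p = 0.098 to 0.41), and Icam1 without pool B labelled vehicle (edgeR adjusted p = 0.080).

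Most lymphocyte and plasma cell markers that passed the count filter rose, but 1 pool carried most of their counts. Of the 33 found, 13 were tested, of which 9 rose and 4 were not called, while 2.21% of all genes tested rose. The filter asks for enough counts in 2 pools, so a marker could be tested through the pools labelled Cre-Tat alone. The share of tested markers that rose is therefore no measure of the whole list. The Ig constant region genes and Jchain, the joining chain of secreted antibodies, gave the largest values. Igkc had 3742 and 462 normalized counts in pools A and B labelled Cre-Tat and 95.2 and 225 in those labelled vehicle. Ighg1 had 2615 and 307 against 6.28 and 125, and Jchain had 1303 and 99.7 against 5.23 and 70.9. In each of them pool A labelled Cre-Tat was the highest, and pool B so labelled lay between it and pool B labelled vehicle. For Ighg2b the latter pair was close, at 96.7 and 90.5. Summed over the 33 markers found in the files, the level was 10711 and 1502 in pools A and B labelled Cre-Tat and 293 and 765 in those labelled vehicle. By DESeq2 2 of the list rose, and without pool A labelled Cre-Tat 2. In that case Ighg1 was at a log2 fold change of 2.25 and no longer called, whereas Igkc was (log2 fold change 1.55, edgeR adjusted p = 0.024). T cell genes were low, with Cd3g, a chain of the T cell receptor complex, at 52.9 and 31.2 against 5.23 and 3.27. The B cell markers Ms4a1, Cd79a and Cd79b were too low to be tested. Jchain and Ighg2b lost the call under total counts (edgeR adjusted p = 0.062 to 0.083), Jchain, Igkc, Ighg1 and Ighg2b by DESeq2 (DESeq2 adjusted p = 0.13 to 0.57), and Ighg2b with DESeq2 size factors (edgeR adjusted p = 0.055). Ighg2b lost it with 8 pools in the fit (edgeR adjusted p = 0.063), and Ighg2b with transcripts summed (edgeR adjusted p = 0.072). Jchain, Ighg1, Ighg2b and Cd3g lost it without pool A labelled Cre-Tat (edgeR adjusted p = 0.092 to 0.57).

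Immediate early genes, which respond within minutes to stimulation or handling, were higher. Of 20 tested, 6 rose and 14 were not called, with a median of 0.59 against 0.00 over all genes tested, where 2.21% rose. Fos had 569 and 291 normalized counts in pools A and B labelled Cre-Tat and 71.1 and 89.4 in those labelled vehicle (log2 fold change 2.42, SE 0.29, edgeR adjusted p = 0.00029). Egr1 had 833 and 353 against 98.3 and 132 (log2 fold change 2.37, SE 0.32, edgeR adjusted p = 0.00088), and Junb had 329.8 and 239 against 82.7 and 98.1. Jun (log2 fold change 0.87, edgeR adjusted p = 0.039), Ier2 (log2 fold change 2.28, edgeR adjusted p = 0.020) and Jund (log2 fold change 0.69, edgeR adjusted p = 0.0496) rose as well. For Fos, Egr1 and Junb the order of pools was the same, with pool A labelled Cre-Tat highest, as for the antibody genes. Nr4a1 (log2 fold change 0.30, edgeR adjusted p = 0.75) and Dusp1 (log2 fold change 0.50, edgeR adjusted p = 0.41) were not called. Whether these genes have a part in the other rises was not tested. With 1 pool left out, 4 and 6 genes of this list rose without pool A or B labelled Cre-Tat, and 4 and 6 without pool A or B labelled vehicle. Jun lost the call by DESeq2 (DESeq2 adjusted p = 0.083), Jund with a mean count above 10 as the filter (edgeR adjusted p = 0.054), and Jund with DESeq2 size factors (edgeR adjusted p = 0.059). Jun lost it with 8 pools in the fit (edgeR adjusted p = 0.0501), and Jun, Ier2 and Jund with transcripts summed (edgeR adjusted p = 0.060 to 0.095). Jun and Ier2 lost it without pool A labelled Cre-Tat (edgeR adjusted p = 0.12 to 0.14), Jund without pool B labelled Cre-Tat (edgeR adjusted p = 0.056), and Jun, Ier2 and Jund without pool A labelled vehicle (edgeR adjusted p = 0.086 to 0.64).

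**Figure D3:**
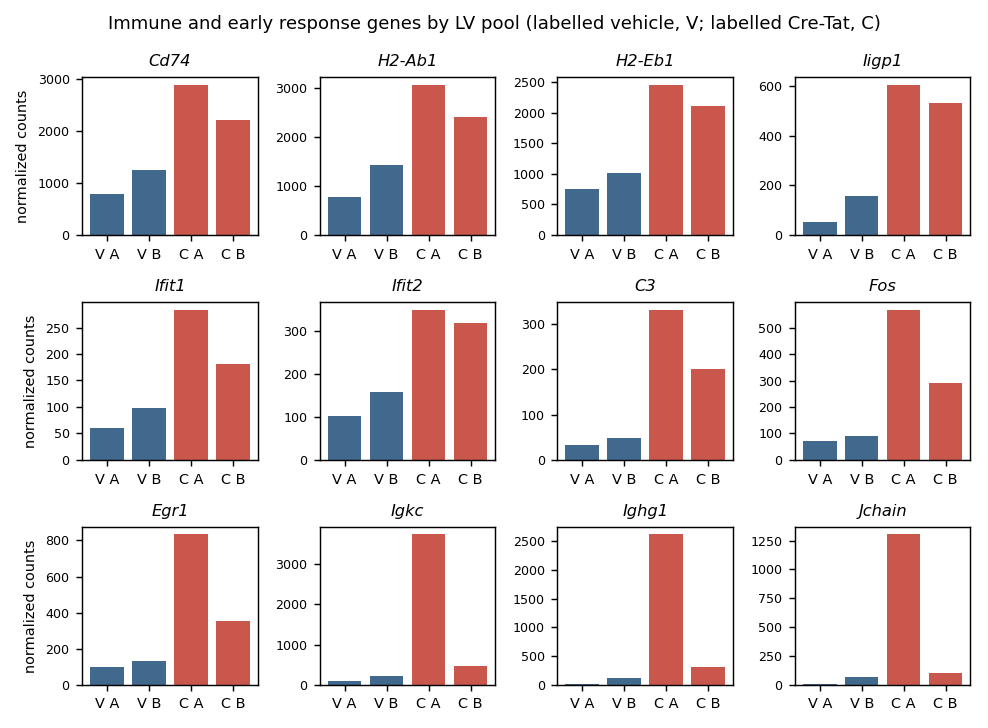
Normalized counts (y axis, starting at 0, a scale for each gene) of 12 immune and immediate early genes in the 4 LV pools (x axis: V A and V B, labelled vehicle; C A and C B, labelled Cre-Tat). Both Cre-Tat pools exceed both vehicle pools for each gene, and for Igkc, Ighg1 and Jchain pool A labelled Cre-Tat holds most of the counts.

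Markers of the other cells of the tissue were summed to show whether its makeup moved with the groups, and in bulk RNA fewer cells of a type and less RNA per cell cannot be told apart. Of 25 macrophage markers tested, Adgre1, Ptprc and Lyz2 rose, 20 had a positive log2 fold change and 18 did not overlap on the higher side, with a median of 0.72. Of all genes tested, 2.21% rose, 7608 of 15002 had a positive value and 22.1% did not overlap on that side. The summed level of the macrophage markers was 4737 to 5673 where labelled Cre-Tat and 3481 to 4168 where labelled vehicle. Fibroblast and leptomeningeal markers summed to 34463 and 41698 against 31064 and 32079, with 31.3% of the sum in Ptgds. Ependymal markers summed to 14563 and 18064 against 13072 and 12840, and dendritic cell and monocyte markers to 653 and 416 against 317 and 361. The endothelial, mural, and neuron and glia sums overlapped between the groups. Of 8 dendritic cell and monocyte markers tested, Ccr2, the receptor by which monocytes are recruited, was the rise, at 178 and 93.7 against 57.5 and 53.4 (log2 fold change 1.29, edgeR adjusted p = 0.040). Of the 8, 7 had a positive log2 fold change and 6 did not overlap on the higher side, with a median of 1.54. Only these 8 of the 17 found were tested, some with few counts where labelled vehicle, such as Clec9a at 2.09 and 2.18. The neutrophil markers S100a8 and S100a9 were too low to be tested. Of 18 endothelial markers 0 were called by edgeR and 0 by DESeq2, with 1 higher and 0 lower at an unadjusted edgeR p under 0.05 and a median of 0.17. Of 13 mural cell markers 0 were called by either, with 2 and 0 at an unadjusted edgeR p under 0.05 and a median of 0.16. Pecam1, of all endothelium, had 720.5 and 681 against 576 and 584. Of 20 fibroblast and leptomeningeal markers, Col1a2 and Ptgds rose and Pdgfra, a receptor of stromal fibroblasts, fell from 5075 and 5574 to 2865 and 2971 (log2 fold change -0.87, SE 0.16, edgeR adjusted p = 0.0081). Ptgds differed within the Cre-Tat label, with 10840 and 18534 against 7848 and 6416. Of 13 ependymal markers, Foxj1, Dynlrb2 and Fam183b rose, all genes of motile cilia, and the ChP epithelium also bears cilia. Of the 13, 11 had a positive log2 fold change and 10 did not overlap on the higher side, where the share of all genes tested was 22.1%. Fam183b had 529 and 647 against 120.3 and 95.9 (log2 fold change 2.44, SE 0.20, edgeR adjusted p = 1.5e-05), and Foxj1, the master regulator of motile cilia, 2898 and 3276 against 1676 and 1878 (log2 fold change 0.80, edgeR adjusted p = 0.015). Of 14 neuron and glia markers, Snap25, Slc17a6 and Aqp4 rose and Aldh1l1 fell. Rbfox3, Dcx and Olig2, which define neurons and oligodendroglia, were too low to be tested. Red blood cell markers were at 2.65 to 10.5 summed counts in 3 pools and at 202 in pool B labelled Cre-Tat, where Hbb-bs alone had 119. Whether any of these shifts contributes to the changes above was not tested. Slc17a6 and Aldh1l1 lost the call under total counts (edgeR adjusted p = 0.060 to 0.14), Ccr2, Slc17a6 and Aqp4 by DESeq2 (DESeq2 adjusted p = 0.057 to 0.068), and Slc17a6 with a mean count above 10 as the filter (edgeR adjusted p = 0.051). Ccr2 and Slc17a6 lost it with DESeq2 size factors (edgeR adjusted p = 0.054 to 0.055), Slc17a6 with 8 pools in the fit (edgeR adjusted p = 0.063), and Dynlrb2, Slc17a6 and Aqp4 with transcripts summed (edgeR adjusted p = 0.054 to 0.092). Adgre1, Ccr2, Snap25, Slc17a6 and Aqp4 lost it without pool A labelled Cre-Tat (edgeR adjusted p = 0.066 to 0.39), Dynlrb2 without pool B labelled Cre-Tat (edgeR adjusted p = 0.067), Adgre1, Foxj1, Dynlrb2, Aqp4 and Aldh1l1 without pool A labelled vehicle (edgeR adjusted p = 0.064 to 0.39), and Ptgds, Pdgfra, Foxj1 and Aldh1l1 without pool B labelled vehicle (edgeR adjusted p = 0.060 to 0.084).

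**Figure D4:**
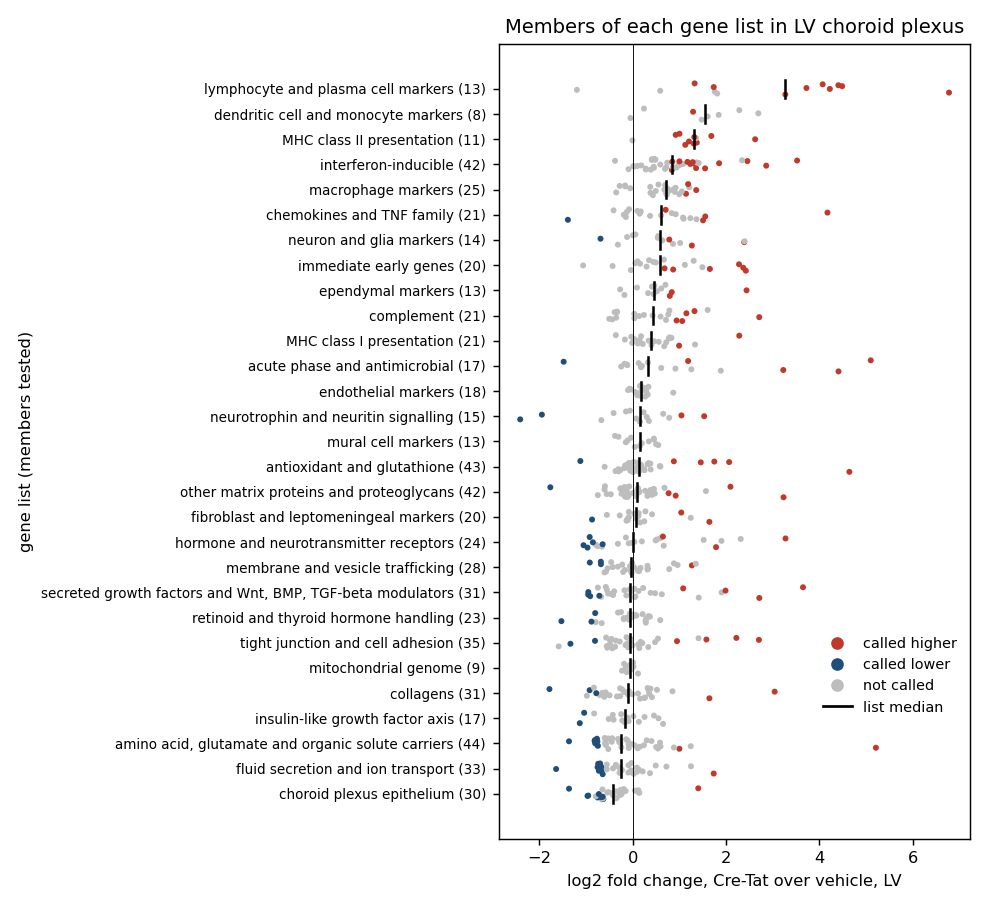
Log2 fold change in LV ChP (x axis) of every tested member of 29 gene lists (y axis, with the number tested). Red points were called higher, blue points called lower and grey points not called in the pools labelled Cre-Tat, and a black line marks each list's median. The medians of the epithelial and transport lists lie below 0 and those of the immune lists above, and the endothelial, mural and mitochondrial lists hold no called gene. The points of Cd6, with both pools labelled vehicle at 0, and of Slc1a6 depend on the prior count of the fit.

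Since OTX2 binds TAATCC-type sites, promoter windows were searched for these letters on both strands. Such a match was in 5.63% of the windows of genes that rose, 6.13% of those of genes that fell 5.94% of those of genes tested and not called and 7.06% of all windows. Among the genes with a match were Otx2 itself, Tgfb2, Igf2, Ednrb and Steap2. The windows of the first pair are printed as examples in which the gene changed, Otx2 from the 1 of its 4 annotated windows with the match, with the same layout as before. The match is read on the other strand where the capitals are GGATTA.
Otx2, chr14:48665060-48665359, minus strand: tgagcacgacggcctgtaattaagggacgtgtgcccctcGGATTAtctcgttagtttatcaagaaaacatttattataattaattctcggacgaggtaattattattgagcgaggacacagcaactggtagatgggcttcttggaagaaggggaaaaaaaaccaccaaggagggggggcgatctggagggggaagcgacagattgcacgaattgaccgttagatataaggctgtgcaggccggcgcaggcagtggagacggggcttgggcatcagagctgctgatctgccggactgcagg
Tgfb2, chr1:186705940-186706239, minus strand: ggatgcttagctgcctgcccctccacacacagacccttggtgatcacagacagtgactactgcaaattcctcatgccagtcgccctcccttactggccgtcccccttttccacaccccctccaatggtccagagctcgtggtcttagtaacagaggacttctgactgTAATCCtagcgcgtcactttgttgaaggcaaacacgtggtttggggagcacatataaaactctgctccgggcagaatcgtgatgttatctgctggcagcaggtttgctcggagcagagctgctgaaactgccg

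The same comparison in 4V ChP, in which 5.7% of 14550 genes were called higher and 4.98% lower, used other libraries. The study's methods describe LV and 4V ChP of the same injected mice, so pools of both ventricles with 1 label and letter may share animals, and the difference was fitted both without and with a block for this. Whether a response differed between ventricles was tested with an interaction term over 8 pools and 15565 genes. It called 1 gene (0.00642%), Gpr176, an orphan receptor that was not called in LV ChP. The count was 0 without pool B labelled vehicle of the LV, and likewise without pool A or pool B labelled Cre-Tat or pool B labelled vehicle of the 4V, and 3 without pool B labelled Cre-Tat of the LV. Edn3 rose in LV ChP by a log2 fold change of 1.08 and stood at 2.61 in 4V ChP, a difference just short of the threshold without the block (edgeR adjusted p = 0.067 for the interaction). Fmod was at 3.23 in the LV and 4.92 in the 4V (edgeR adjusted p = 0.40), and Cacnb3 at 3.77 and 5.42 (edgeR adjusted p = 1, both for the interaction). Nrn1, at -1.94 in the LV and -0.91 in the 4V, and Npy1r, at -1.72 and -0.53, were called lower in LV ChP and not in 4V ChP (edgeR adjusted p in 4V ChP = 0.45 and 0.37), but the difference itself was not called for either (edgeR adjusted p = 1 and 1 for the interaction). In 4V ChP, Nrn1 had only 17.1 and 2.35 normalized counts where labelled Cre-Tat and 16.3 and 20.1 where labelled vehicle. Npy1r had 45.4 and 30.5 against 55.8 and 53.1 there. At such low counts, above all for Nrn1, the 4V values say little about a response. Snap25, a vesicle fusion protein of neurons, rose in LV ChP, at 239.9 and 176 against 93.1 and 79.6 normalized counts (log2 fold change 1.27, edgeR adjusted p = 0.010), and was at -0.68 in 4V ChP, again without a call of the difference (edgeR adjusted p = 0.75 for the interaction). With pools of the same label and letter as a block, a fit added after the data were seen, the interaction called 6 genes, each with a smaller log2 fold change in LV ChP than in 4V ChP. Of these, Edn3 (edgeR adjusted p = 0.017), Fmod (edgeR adjusted p = 0.021) and Sncg (edgeR adjusted p = 0.028), which encodes gamma-synuclein and was at 1.84 in the LV and 3.57 in the 4V, rose in both ventricles. Gpr176, Slitrk6 and C1qtnf3 were not called in LV ChP (edgeR adjusted p = 0.017, 0.028 and 0.046 for the interaction in this fit).

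**Figure D5:**
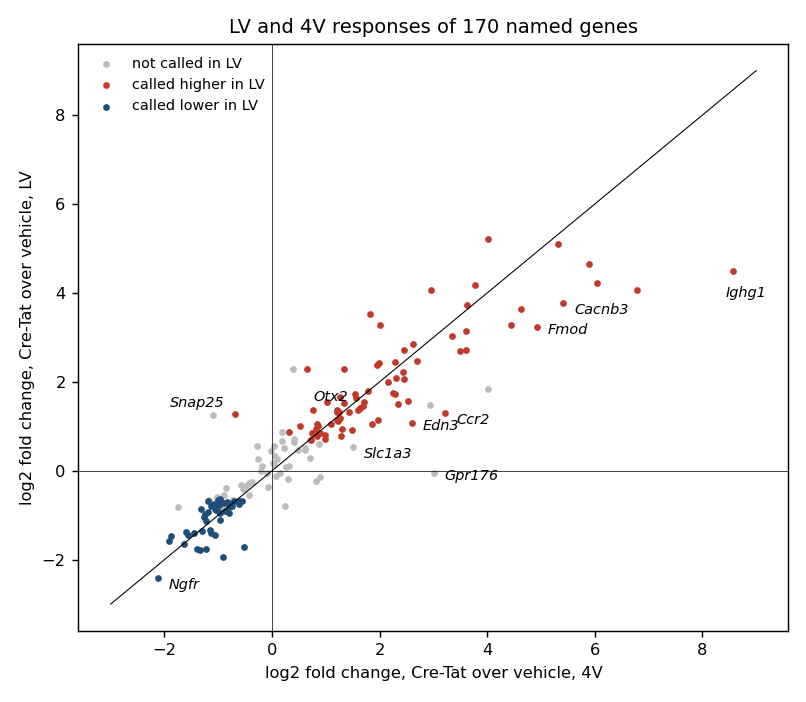
Log2 fold change of the pools labelled Cre-Tat over those labelled vehicle in 4V ChP (x axis) and in LV ChP (y axis) for the 170 named genes with a value in both. The diagonal marks equal responses, colours give the call in LV ChP, and Gpr176, the gene whose difference was called without the block, lies far to the right of the diagonal near 0 in LV ChP.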

How the data were processed

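Raw counts of reads per Ensembl transcript were deposited by the authors for each technical run. The submitters' processing notes name bcl2fastq 1.8.4, Bowtie 0.12.9, SAMtools, HTSeq 0.5.3, DESeq 1.8.3 and the genome build mm10. The labels name Ribo-Zero and strand-specific ScriptSeq V2 libraries, while the study's methods name PolyA+ RNA. Whether a read shared by transcripts or paralogs was counted, split or dropped is not given in the sources used here.

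The members and the gene lists were chosen with earlier results of these data known. The plan assumed counts per gene, and the files hold 95533 transcripts, of which 82807 were matched by identifier to GENCODE release M21 (GRCm38) and held 89.5% of the counts. Each of the 33984 genes was represented by its transcript with the highest count, and counts summed over transcripts were an alternative. The 2 runs of a pool were summed, with files assigned to pools by library number. Pools of the 4 conditional groups were compared within ventricle with the quasi-likelihood test of edgeR 4.0.16 in R 4.3.3 after filterByExpr and TMM scaling, with p-values adjusted by Benjamini-Hochberg over 15002 genes. The biological coefficient of variation was 0.152. On simulated counts for 14743 genes with the means and depths of these pools, 86.7% of 4-fold and 59.8% of 2-fold changes were called, and 7.01% of the called genes were unchanged ones.

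Genes were named by a rule that took Otx2, the 12 largest rises and 12 largest falls with a mean of at least 100 normalized counts and no overlap, the 10 called genes with the highest counts, up to 5 genes with the smallest adjusted p in each list with its gene of highest count, and genes called in the interaction. Other list members are named beside them and were chosen after their values were seen. Promoter windows came from RefSeq (GRCm38.p6). Alternatives were DESeq2 1.42.0, its size factors, total counts, other filters, all 8 conditional pools in 1 fit, the pool letter as a replicate block and leaving out each pool. The pool letters A and B were not taken to pair the pools, since nothing ties a letter to a shared session and the deviations of same-letter LV pools from their group means correlated at -0.12. Values of some genes are not reported here.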

Additional observations from a re-analysis of the deposited data

Results flagged for a closer look

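Gpr176, which encodes an orphan G protein-coupled receptor, met the threshold in the test of the difference between ventricles. Its normalized counts in LV ChP were 46.7 and 54.4 in pools A and B labelled Cre-Tat and 39.8 and 65.4 in those labelled vehicle, so the groups overlapped. In 4V ChP they were 213 and 220 in the pools labelled Cre-Tat and 32.6 and 20.1 in those labelled vehicle. The LV response minus the 4V response was -3.07 on the log2 scale (edgeR adjusted p = 0.039 over 15565 genes). Its exons overlap Gm29232 on the same strand. Groups of 2 pools were too small to test for a pool that stands apart within its group.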

How the results depend on the processing

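Without a filter on low counts, 874 genes were called (559 higher, 315 lower), and under total counts 444 (396 higher and 48 lower). DESeq2 called 513 genes (286 higher and 227 lower), of which 413 were among the 486. Analysing the files as attached in the repository gave 6709 (3391 higher, 3318 lower). Leaving out 1 LV pool gave 321 to 737 genes, 230 to 412 of them higher and 91 to 325 lower, with 321 without pool A labelled vehicle and 737 without pool B labelled Cre-Tat. Of the genes of all lists, 136 were called, and 89 to 169 with 1 pool left out. For the difference between ventricles, leaving out 1 pool gave 0 to 3 genes in place of 1. Nothing ties the pool letters to a shared session. With the letter as a replicate block 622 genes were called (427 higher and 195 lower, 472 of them among the 486), and 2 for the difference between ventricles, which became 6 with a block for pools of the same label and letter in both ventricles (added after the data were seen). The crossed pairing of letters, tried after the data were seen, gave 1012 genes (596 higher, 416 lower). The block ended the calls of 6 of the genes named in the text and added 3, which says nothing of the size of these effects. The 6 were all falls, namely Enpp2, Aqp1, Kcne2, Slc4a2, Vat1l and Ghr (edgeR adjusted p = 0.053 to 0.071).

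Otx2 stayed higher in the pools labelled Cre-Tat and called under each of the 12 settings, with a log2 fold change of 1.26 to 1.58. Of 178 other genes named in the text, 143 were called, and 75 of these lost the call under 1 or more settings, 53 of them under a setting that keeps all pools. A change of sign with a call on either side occurred for 0 of the 178. Total counts ended 31 of the calls and added 1, DESeq2 ended 13 and added 3, summing transcripts ended 26 and added 3, and leaving out pool A labelled vehicle ended 50 and added 2. Apart from total counts and the filter, whose construction shows the source of the change, the cause was not tested. With 2 pools a group, 2-fold changes were called in 59.8% of simulated cases, so a gene without a call may still differ. Smaller changes were not simulated and the cases were not split by count, so how often such changes are missed was not tested.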

Other observations

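Genes of the motile cilium, beyond the ependymal markers, mostly had positive fold changes in LV ChP, and these families were picked after their values were seen. Of 28 genes of the Cfap family, which encode proteins of the ciliary axoneme, 4 rose by edgeR and 25 had a positive log2 fold change, with a median of 0.36. Of all genes tested, 2.21% rose and 7608 of 15002 had a positive value. Cfap46 had 213 and 225 normalized counts in pools A and B labelled Cre-Tat and 63.8 and 41.4 in those labelled vehicle (log2 fold change 2.05, SE 0.26, edgeR adjusted p = 0.00055). Cfap161 had 399 and 464 against 258 and 184, Cfap53 had 395 and 345 against 194 and 227 and Cfap45 had 1109 and 1307 against 778 and 718. In these 4 genes both pools labelled Cre-Tat were above both labelled vehicle. Rsph1, a component of the radial spoke head, had 1493 and 1819 against 1067 and 951 (log2 fold change 0.71, SE 0.17, edgeR adjusted p = 0.031), and all 6 Rsph genes tested had a positive value, with a median of 0.60. Tekt4, which encodes a filament protein of ciliary microtubules, had 293 and 342 against 198 and 168. Of 13 Dnah genes, which encode axonemal dynein heavy chains, 0 were called and 10 had a positive value, with a median of 0.36. The same medians in 4V ChP were 0.33 for Cfap, 0.54 for Rsph and 0.40 for Dnah genes. Tekt4 lost the call by DESeq2 (DESeq2 adjusted p = 0.078), and Cfap53, Cfap45, Rsph1 and Tekt4 with transcripts summed (edgeR adjusted p = 0.0503 to 0.091). Cfap53 lost it without pool A labelled Cre-Tat (edgeR adjusted p = 0.076), Tekt4 without pool B labelled Cre-Tat (edgeR adjusted p = 0.089), Cfap53, Cfap45, Rsph1 and Tekt4 without pool A labelled vehicle (edgeR adjusted p = 0.057 to 0.23), and Cfap161, Cfap45, Rsph1 and Tekt4 without pool B labelled vehicle (edgeR adjusted p = 0.15 to 0.33). Cilia are borne by both the ChP epithelium and ependymal cells, and the part of each was not tested.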
